A study of Mus musculus with 11 samples.

Results

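The 7 genes Tcf7l2, Lef1, Calb2, Synpo2, Prkcd, Rora and Gbx2 are used as markers of the thalamus, the brain region that lies directly above the hypothalamus, and their mRNA was followed here in samples labelled as hypothalamus. Members were chosen by name, as every mouse probe whose accession mapped to one of these symbols, which gave 12 of 39429 probes and 7 of 19987 named genes. Hypothalamic RNA came from C57BL/6N male offspring at postnatal day 21 and was measured with a single dye on Agilent whole genome arrays. The 5 CO samples (titled SD) came from offspring of dams on standard chow, and the 6 HFD samples from offspring of dams on a high-fat diet, with each diet given from weaning of the dam through gestation and lactation. The tissue block was limited dorsally by the mammillothalamic tract, a fibre bundle that ascends into the thalamus. No more than 2 offspring per dam were used in the study. Neither the dam of a sample nor the number of animals in it is given by the labels. In their titles, CO replicates 1 to 3 share a leading number and replicates 4 and 5 another, while the HFD titles share none. The labels do not say whether these numbers mark dams, so CO samples may be related. All p-values therefore describe only how far these samples spread, which may be technical.

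Each array held 43020 mouse spots, and none was saturated. Spots well above background made up 82.5 to 85.7% on CO arrays and 71.8 to 77.4% on HFD arrays. Values are log2 of the processed signal minus the 75th percentile of the array, and HFD minus CO differences are on this log2 scale. CO and HFD arrays lay on different slides and were scanned 337 days apart under different protocol versions, so that maternal diet and batch cannot be told apart in any value below. Relative to the 75th percentile, 8 spike-in control probes, which bind RNA added to the samples, were 0.68 higher on HFD arrays (p = 0.00433 by a two-sided exact permutation test, the lowest value possible for groups of 5 and 6). Scaling to these probes lowered all differences by this amount and moved the median over all probes from -0.18 to -0.86. Of 12 hypothalamic marker genes, 11 were well above background on all 11 arrays, and Otp was so on 5 of 5 CO and 1 of 6 HFD arrays.

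The thalamus relays sensory and motor signals to the cortex, and its neurons take their identity from a small set of transcription factors. Tcf7l2 and Lef1 encode DNA-binding partners of beta-catenin at the end of the canonical Wnt pathway, Gbx2 encodes a homeodomain factor required for thalamic differentiation, and Rora encodes a nuclear receptor found in sensory relay nuclei. Prkcd (protein kinase C delta), Calb2 (calretinin, a calcium-binding protein) and Synpo2 (synaptopodin 2, an actin-associated protein) are effector genes by which thalamic nuclei are recognised in sections. These genes are not exclusive to the thalamus, since Calb2 and Lef1, among others, are also transcribed in hypothalamic neurons. In pieces of tissue such as these, fewer cells of a type and less RNA per cell cannot be told apart.

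Promoter windows of 300 bases were available from RefSeq (GRCm38.p6) for 6 of the 7 genes, 11 windows in all. Shown are 6 of them, chosen because the brightest probe of these 5 genes was higher in HFD offspring. The other Synpo2 probes were lower, so that no direction is given for that gene. Of the 4 Lef1 windows the first is printed. Capitals mark the letters CTTTGNT on either strand, a short form of the TCF/LEF motif.
Tcf7l2, first start, chr19:55741560-55741859, plus strand: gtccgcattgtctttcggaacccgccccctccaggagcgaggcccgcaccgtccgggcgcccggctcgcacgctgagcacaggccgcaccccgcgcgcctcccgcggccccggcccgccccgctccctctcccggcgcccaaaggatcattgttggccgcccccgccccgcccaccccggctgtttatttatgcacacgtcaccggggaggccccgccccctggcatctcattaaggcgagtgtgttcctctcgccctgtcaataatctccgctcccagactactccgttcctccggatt
Tcf7l2, internal start, chr19:55895071-55895370, plus strand: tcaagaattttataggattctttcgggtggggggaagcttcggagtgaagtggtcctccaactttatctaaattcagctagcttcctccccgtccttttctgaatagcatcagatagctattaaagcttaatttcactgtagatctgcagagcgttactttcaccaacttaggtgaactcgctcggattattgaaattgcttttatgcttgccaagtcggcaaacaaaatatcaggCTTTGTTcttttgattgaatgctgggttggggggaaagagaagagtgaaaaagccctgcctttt
Lef1, first start, chr3:131110047-131110346, plus strand: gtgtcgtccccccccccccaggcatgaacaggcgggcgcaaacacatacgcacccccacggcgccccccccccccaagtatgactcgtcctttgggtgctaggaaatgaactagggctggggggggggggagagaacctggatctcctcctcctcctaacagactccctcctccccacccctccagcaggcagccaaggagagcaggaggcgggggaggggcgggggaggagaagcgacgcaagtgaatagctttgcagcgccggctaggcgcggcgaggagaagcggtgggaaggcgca
Rora, chr9:68653536-68653835, plus strand: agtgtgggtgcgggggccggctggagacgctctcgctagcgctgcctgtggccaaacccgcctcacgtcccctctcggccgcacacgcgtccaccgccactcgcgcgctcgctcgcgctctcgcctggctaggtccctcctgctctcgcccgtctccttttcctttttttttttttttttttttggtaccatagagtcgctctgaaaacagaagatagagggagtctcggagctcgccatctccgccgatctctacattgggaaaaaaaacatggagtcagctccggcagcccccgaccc
Synpo2, chr3:123236100-123236399, minus strand: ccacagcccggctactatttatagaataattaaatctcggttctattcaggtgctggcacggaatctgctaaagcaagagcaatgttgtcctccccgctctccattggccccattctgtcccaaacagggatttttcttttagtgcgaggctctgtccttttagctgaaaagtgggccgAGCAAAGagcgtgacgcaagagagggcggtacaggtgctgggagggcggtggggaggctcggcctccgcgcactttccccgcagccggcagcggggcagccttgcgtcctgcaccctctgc
Gbx2, chr1:89931127-89931426, minus strand: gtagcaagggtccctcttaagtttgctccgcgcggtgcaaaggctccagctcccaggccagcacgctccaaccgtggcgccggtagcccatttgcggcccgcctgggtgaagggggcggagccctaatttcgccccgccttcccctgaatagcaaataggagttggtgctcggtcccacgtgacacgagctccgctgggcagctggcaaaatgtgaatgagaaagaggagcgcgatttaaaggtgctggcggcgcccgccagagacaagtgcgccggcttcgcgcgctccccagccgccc
The internal start of Tcf7l2, the Synpo2 window and a Prkcd window held CTTTGNT, which made 3 of 11 windows against 18.6% of all 32851 windows of this length. The letters TAGGTCA, a short form of the motif bound by ROR receptors, were in 0 of 11 windows and in 2.61% of all, and the homeodomain core TAATTA was in 1 of 11, that of Synpo2, and in 5.29% of all. Base composition differed between the Tcf7l2 starts, with a GC content of 70.0% at the first and 42.0% at the internal start.

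Relative to the 75th percentile of each array, most thalamic marker genes were higher in HFD than in CO offspring by their brightest probe. Of the 4 transcription factor genes, 3 rose by 1.55-fold or more. Relative to the spike-in probes, 2 of the 7 members were higher and 2 were lower by their brightest probe. On that scale 942 of all 17197 genes were higher and 14423 lower. Of the 12 probes, 6 were higher, 4 were lower and 2 did not pass the limma test at an adjusted p of 0.05, whereas 67.1% of all 31800 probes tested were called, 23.5% higher and 43.6% lower. Over 11 arrays, 6 member probes lay entirely above the CO range on HFD arrays and 2 entirely below it, against 17.4% and 30.6% of 31711 probes (48.0% in either direction). By the probe brightest over all arrays, Tcf7l2, Lef1, Synpo2, Rora and Gbx2 were higher, Calb2 was lower and Prkcd did not pass, while 66.4% of all 17197 genes tested were called, 22.2% higher and 44.2% lower. The median over the 7 genes was 0.63, beside -0.17 over all genes. The call for Synpo2 follows from this choice of probe, since in CO samples another of its probes, which was lower in HFD samples, was the brighter one. With the probes of a gene averaged, 4 members were higher and 2 lower, at a median of 0.43. All 12 probes passed the filter on dim probes, 11 of them being well above background on all 11 arrays. With scaling to the spike-in probes, 2 probes were higher and 6 lower, beside 2227 higher and 25697 lower of all 31800 probes. The median over the 7 genes was then -0.049, beside -0.85 over all genes.

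**Figure D1:**
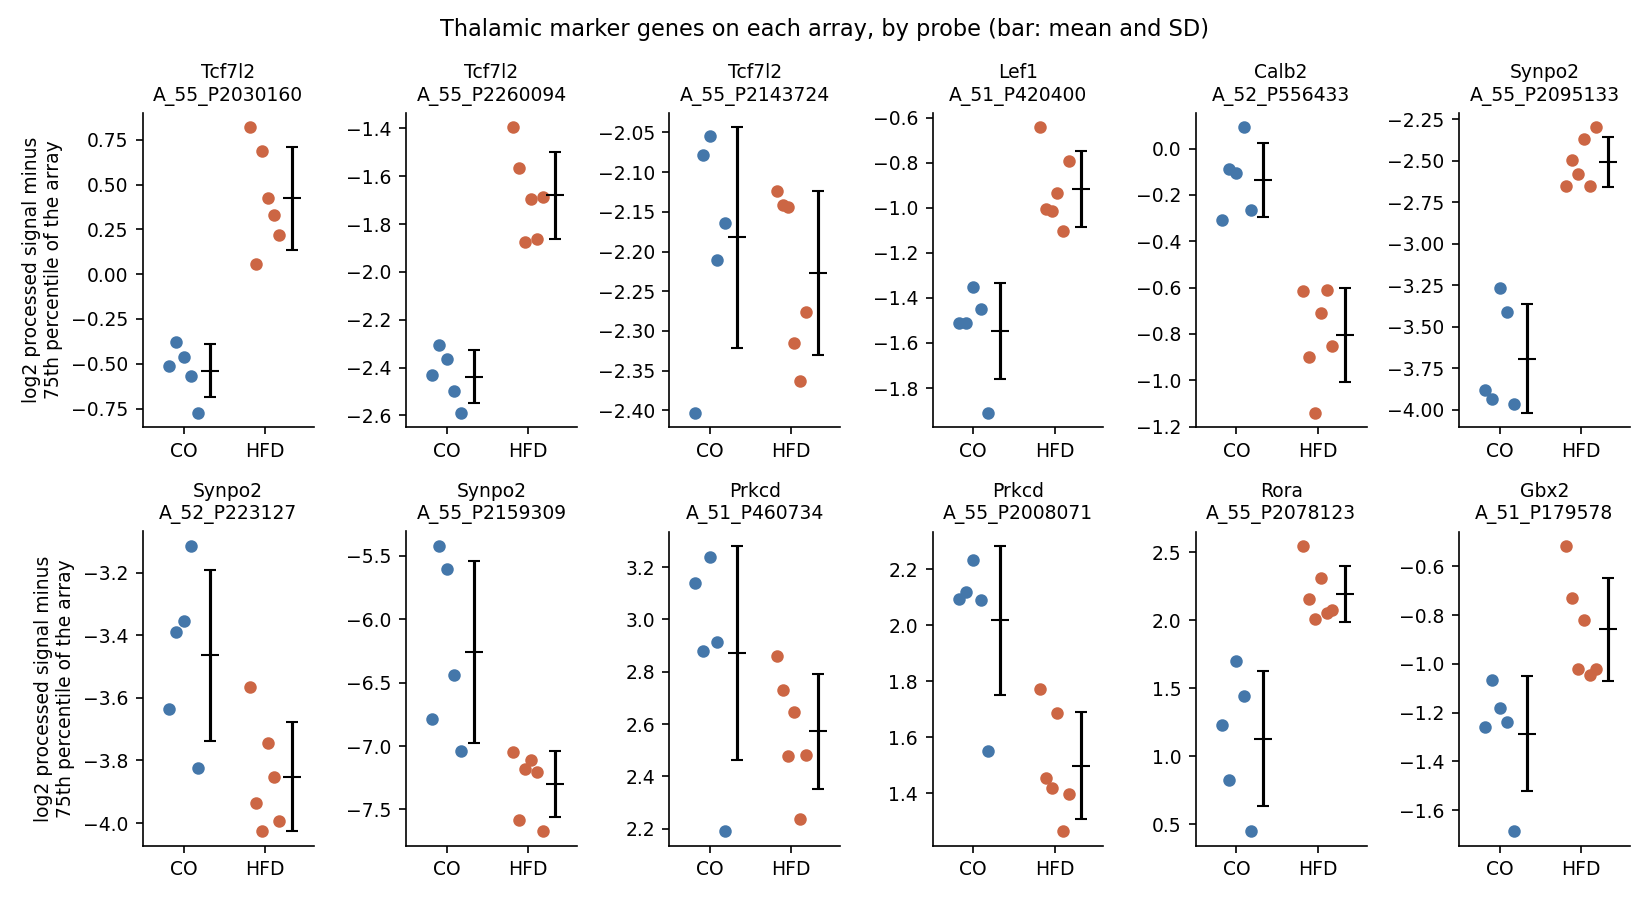
Log2 processed signal minus the 75th percentile of the array (y axis, a scale of its own in each panel) of the 12 probes on 5 CO and 6 HFD arrays; each point is an array, and the bar gives the mean and SD. The first 2 probes of Tcf7l2 and those of Lef1, Rora and Gbx2 lay above the CO range on all HFD arrays, the third Tcf7l2 probe and the brighter Prkcd probe overlapped, and the probes of Synpo2 went both ways.

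Tcf7l2 lies on chromosome 19 from 55741797 to 55933659 and was read by 3 probes, each assigned to a different RefSeq transcript of the gene. Its brightest probe, A_55_P2030160, gave processed signals of 1665, 1969, 1743, 1980.2 and 1296 intensity units in CO replicates 1 to 5, and of 3583 to 5759 (median 4216) in the HFD samples. All 6 HFD values lay above all CO values on both the intensity and the log2 scale. The log2 difference was 0.96 (SE 0.13, 1.95-fold, limma adjusted p = 7.50e-05), between -0.54 ± 0.15 (SD, n = 5) and 0.42 ± 0.29 (SD, n = 6). A second probe, A_55_P2260094, read 440.2, 518, 466, 519 and 368 units in CO and 855 to 1241 (median 1022) in HFD samples. It was higher by 0.76 (SE 0.09, limma adjusted p = 3.02e-05), again with no overlap. The third probe, A_55_P2143724, read 448, 607, 578, 633 and 494 units in CO and 617 to 781 (median 694) in HFD samples. After scaling, all 6 HFD values lay within the CO range, with a difference of -0.045 (SE 0.078, limma adjusted p = 0.627). Within arrays, the first probe gained 1.01 on the third in HFD relative to CO samples, and the second gained 0.80 on the third (exact permutation tests, two-sided, p = 0.00433 and adjusted p = 0.00758 for both). The second probe lay 0.26 below the third in CO samples and 0.55 above it in HFD samples. The difference between the first and the second shifted by 0.20, which did not pass (exact permutation p = 0.221). Which exons each probe binds was not analysed here.

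Lef1, the second member of the TCF/LEF family (chromosome 3, 131110297 to 131224357), read 831, 898, 941, 1073 and 589.6 units in CO replicates 1 to 5. HFD samples read 1480.2 to 2089.8 (median 1723), and the groups did not overlap. Its level rose by 0.63 (SE 0.11, 1.55-fold, limma adjusted p = 3.96e-04), and CO replicate 5 was the lowest of all. With spike-in scaling the difference was -0.049 and no longer passed (adjusted p = 0.698).

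Of 12 genes of the TCF/LEF family and the canonical Wnt pathway, which include both members, 4 were higher, 3 were lower and 5 did not pass, at a median of 0.025, so that 7 of 12 were called beside 66.4% of all genes. Ctnnb1, which encodes beta-catenin, was higher by 0.41 (SE 0.05, limma adjusted p = 1.85e-05), and the family member Tcf7l1 by 0.31. Apcdd1, a Wnt inhibitor that is also a Wnt target, was lower by 2.07 (4.21-fold, limma adjusted p = 8.22e-08). Znrf3 was at -0.78 and Nkd1 at -0.21, both negative regulators of the pathway. The value of Nkd1 was near the median of -0.17 over all genes, and its second probe was at 0.11 and did not pass. Axin2, a widely used readout of this pathway, was at 0.11 (SE 0.24) on its brightest probe and at -0.25 on a second, and neither passed. With spike-in scaling 1 gene of this list was higher and 8 were lower, beside 942 and 14423 of all 17197 genes.

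Rora (chromosome 9, 68653404 to 69388246) had the widest spread over CO samples among the 7 brightest probes on the log2 scale, with 5564, 4545, 7792, 7954 and 3020.1 units in replicates 1 to 5. HFD samples read 12591 to 19071 (median 14628), and even the highest CO sample lay below the lowest HFD sample. The difference was 1.06 (SE 0.20, 2.09-fold, limma adjusted p = 6.65e-04). The SD of Rora over CO arrays was 0.50, larger than that of 90.6% of all probes tested, and over HFD arrays it was 0.20, larger than that of 68.2%. With spike-in scaling the difference was 0.38 and no longer passed (adjusted p = 0.0931).

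Among 6 genes of retinoic acid receptor-related orphan receptors and their clock targets, Rora included, 2 were higher, 2 lower and 2 did not pass, and 4 of 6 called is close to the 66.4% of all genes called. Nr1d2, a repressor of the circadian clock, was higher by 1.06 (SE 0.17, limma adjusted p = 2.16e-04). Its paralogue Nr1d1 was lower by 0.39, and the clock activator Arntl was at -0.30. Rorb, a receptor of the same family found in sensory thalamus, was at 0.35 and did not pass (adjusted p = 0.0594). With spike-in scaling 0 genes of this list were higher and 3 were lower by limma, beside 942 and 14423 of all 17197 genes.

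Gbx2 (chromosome 1, 89927962 to 89931176) showed the smallest increase. CO replicates 1 to 5 read 992, 1223, 1059.9, 1242 and 688 units, and the HFD samples 1540.4 to 2284 (median 1746). After scaling the groups just cleared each other, with a difference of 0.43 (SE 0.13, 1.35-fold, limma adjusted p = 0.0113). With spike-in scaling it turned to -0.25 (adjusted p = 0.115).

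The 2 probes of Prkcd (chromosome 14, 30595353 to 30626414) did not rise. The brighter one, A_51_P460734, read 20889, 18833, 22649, 22106 and 10109 units in CO replicates 1 to 5 and 14979 to 23703 (median 19519) in HFD samples. All 6 HFD values lay within the CO range, and the difference of -0.30 (SE 0.18) did not pass (limma adjusted p = 0.155). Without CO replicate 5, the lowest CO sample, it was -0.47 and passed (limma adjusted p = 0.00739). The other probe, A_55_P2008071, read 10107, 11122, 11303, 12470.5 and 6499.6 units in CO and 7629.6 to 11138 (median 9052) in HFD samples. It was lower by 0.52 (SE 0.13, 1.43-fold, limma adjusted p = 0.00428), although after scaling 2 of 6 HFD values lay within the CO range, whose lowest sample was CO replicate 5. The within-array difference between the probes moved by 0.22 between groups, which did not pass (exact permutation test, two-sided, p = 0.0433, adjusted p = 0.0505 over 7 probe pairs).

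Calb2 (chromosome 8, 110142526 to 110168212) was the one member lower by its brightest probe. CO replicates 1 to 5 read 1912, 2411, 2235, 3125 and 1845 units, and the HFD samples 1422 to 2133 (median 1934). The ranges overlapped as intensities but not after scaling, where the difference was -0.67 (SE 0.11, 1.59-fold higher in CO, limma adjusted p = 2.29e-04).

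Synpo2 (chromosome 3, 123076519 to 123236168) was read by 3 probes of the same RefSeq transcript, which went in opposite directions. The brightest over all arrays, A_55_P2095133, read 161, 167, 249, 275 and 142 units in CO replicates 1 to 5 and 506 to 668 (median 568) in HFD samples. It rose by 1.18 (SE 0.14, 2.27-fold, limma adjusted p = 2.02e-05), the largest increase among the 12 probes, with no overlap. A second probe, A_52_P223127, read 191, 245, 235, 339 and 157 units in CO and 193 to 276 (median 223) in HFD samples. It was lower by 0.39 (SE 0.13, limma adjusted p = 0.0188), with 2 of 6 HFD values inside the CO range. The third, A_55_P2159309, was dim, with 21.4, 59.8, 49.4, 33.9 and 16.8 units in CO and 16.1 to 24.6 (median 21.6) in HFD samples, where it was well above background on 3 of 6 arrays. Its difference was -1.04 (SE 0.28, limma adjusted p = 0.00654), but -0.26 with the normexp background correction (adjusted p = 0.75) and -0.48 with quantile normalization (adjusted p = 0.194). Within arrays, the first probe lay 0.23 below the second in CO samples and 1.34 above it in HFD samples, a shift of 1.57 (exact permutation test, two-sided, p = 0.00433, adjusted p = 0.00758). The first probe was thus the brightest through its HFD values, and no direction is given for Synpo2 as a gene.

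**Figure D2:**
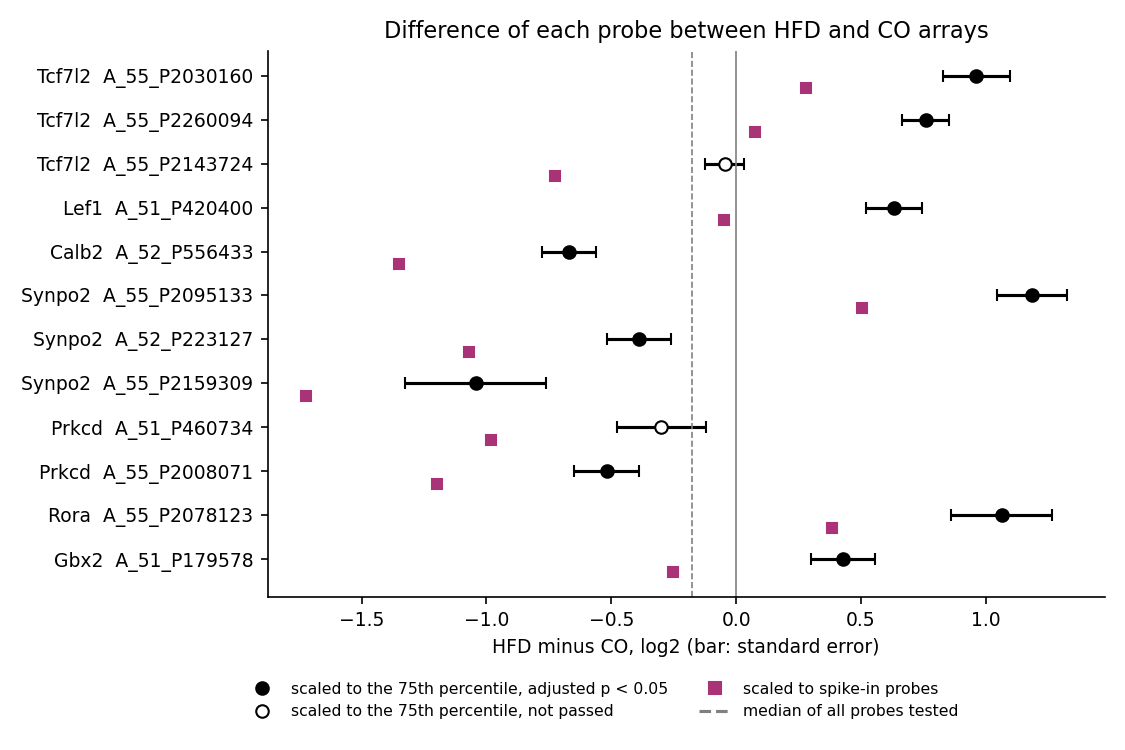
HFD minus CO difference of each of the 12 probes on the log2 scale (x axis), with bars for the standard error; circles are scaled to the 75th percentile, squares to the spike-in probes, and the dashed line marks the median of all probes tested. Filled circles passed the limma test; with spike-in scaling Lef1 (-0.049) and Gbx2 (-0.25) changed sign, while the first 2 Tcf7l2 probes, Rora and the brightest Synpo2 probe stayed above 0.

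Since a scaling factor cancels in the difference between a pair of probes of the same array, the brightest probes of the members were also compared within arrays, Synpo2 standing for its probe A_55_P2095133 only. Of 21 pairs of members, 17 changed unequally between groups after Benjamini-Hochberg adjustment (exact permutation tests, two-sided). Pairs of other genes were not examined, and 66.4% of all genes were called, so that this count cannot be read as a trait of the members. Gbx2 gained on Calb2 by 1.10, Lef1 by 1.30, Tcf7l2 by 1.63 and Rora by 1.73 (exact permutation p = 0.00433, adjusted p = 0.00826 for each). They likewise gained on Prkcd, from 0.73 for Gbx2 to 1.36 for Rora (exact permutation p = 0.00433, adjusted p = 0.00826 for each). The Synpo2 probe gained 1.85 on Calb2 and 1.48 on Prkcd. These gains follow from the choice of probe, since it was the brightest through its HFD values and the other Synpo2 probes were lower in HFD samples. The differences between Tcf7l2, Rora and Synpo2 moved by 0.10 to 0.22 in size and did not pass in any of the 3 pairs, with SDs of 0.26 to 0.44 within groups. The difference between Calb2 and Prkcd moved by 0.37, which did not pass (exact permutation p = 0.104, adjusted p = 0.121). Tcf7l2 also gained on Gbx2 by 0.53 and Rora by 0.64 (adjusted p = 0.0140 and 0.00826, exact permutation tests). The Synpo2 probe gained 0.76 on Gbx2, with the same limit from its choice.

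An array in each group was extreme for most member probes. In the CO group, replicate 5 was the lowest array for 10 of 12 probes and for 6 of 7 genes by brightest probe, whereas it was the lowest for 17.5% of all probes and the highest for 29.8%. Its median deviation from the other CO arrays was -0.45 over the 12 probes, beside 0.05 over all probes. Prkcd and Rora were both 0.85 below the other CO samples on this array, a deviation lower than that of all but 1.54% of all probes. In the HFD group, replicate 1 was the highest array for 10 of 12 probes and 5 of 7 genes, against 21.4% of all probes. Tcf7l2 was 0.48, Rora 0.43 and Gbx2 0.41 above the other HFD samples there. The brightest Synpo2 probe was at -0.18 and the lowest of its group, whereas the other Synpo2 probes were at 0.35 and 0.30. Leaving out CO replicate 5 or HFD replicate 1 left 6 member probes higher, and 5 of 7 genes by brightest probe.

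**Figure D3:**
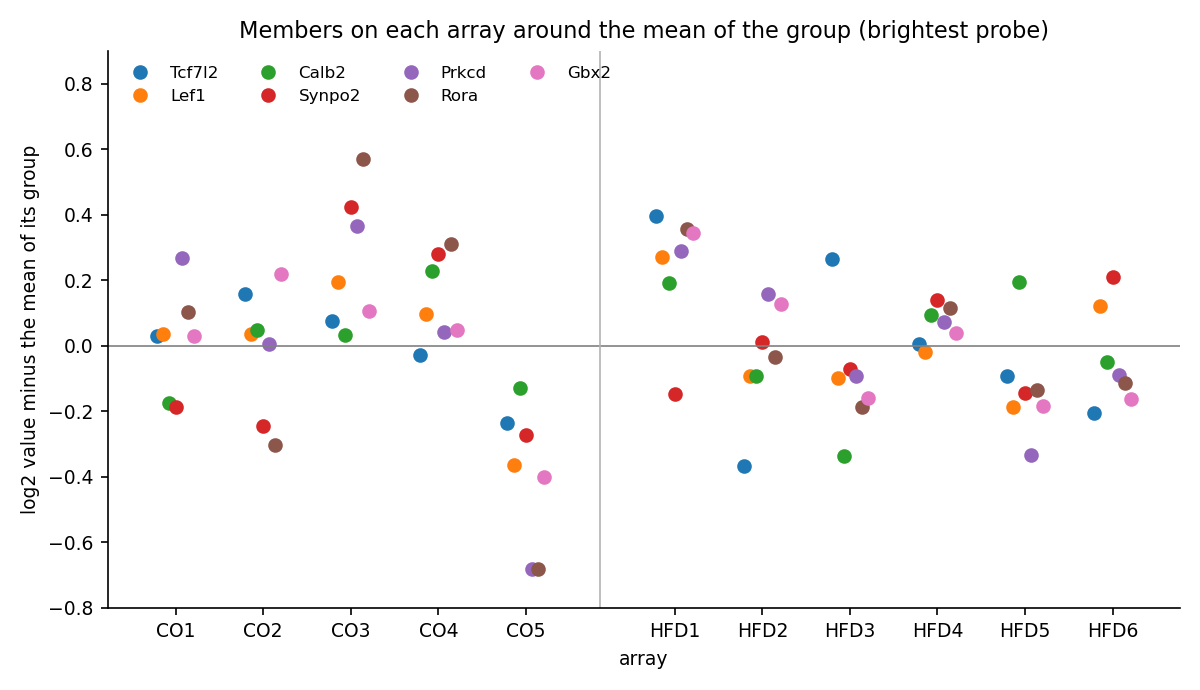
Log2 value of the brightest probe of each of the 7 genes minus the mean of its group (y axis) on each of 5 CO and 6 HFD arrays (x axis), a point per gene and array. All 7 genes lay below the group mean in CO replicate 5, and 6 of 7 lay above it in HFD replicate 1. The exception was the brightest Synpo2 probe, while the other Synpo2 probes (not drawn) were highest on that array.

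Correlation among the 6 HFD samples varied widely between pairs of members. Over 21 pairs, Pearson's r ran from -0.52 (Tcf7l2 with Synpo2) to 0.92 (Prkcd with Gbx2), with a median of 0.32, and 17 pairs were positive. Prkcd, Rora and Gbx2 gave the 3 highest values, with r of 0.92 for Prkcd and Gbx2 (Spearman's rho 0.94, exact permutation p = 0.0194 and 0.0167, adjusted p = 0.204 and 0.350). Rora and Gbx2 had r of 0.91 (rho 0.77, exact permutation p = 0.0139 and 0.103, adjusted p = 0.204 and 0.432), and Prkcd and Rora r of 0.80 (rho 0.89, exact permutation p = 0.0514 and 0.0333, adjusted p = 0.360 and 0.350). No pair passed after adjustment over 21 pairs, 2 passing without adjustment by r and 2 by rho. Leaving out the 2 samples farthest from the median of the first gene, r was 0.999 for Prkcd and Gbx2, 0.87 for Rora and Gbx2 and 0.69 for Prkcd and Rora. Tcf7l2 and Lef1, the pair of one family, had r of 0.45 (rho 0.26, exact permutation p = 0.365 and 0.658, adjusted p = 0.767 and 0.965), which became -0.44 without HFD replicates 1 and 2. The median r over the 21 pairs was 0.04 without HFD replicate 1, 0.49 without HFD replicate 2 and 0.63 with the probes of a gene averaged. The smallest p that 6 samples allow is 0.00278. These values depend on the probe, since probes of the same gene did not always run together among HFD samples. The brightest Tcf7l2 probe had r of 0.15 and 0.36 with its other probes, and the brightest Synpo2 probe r of -0.35 and -0.59 with its own. The Prkcd probes had r of 0.86, and no probe pair of a gene passed after adjustment (lowest adjusted p = 0.214, exact permutation tests).

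**Figure D4:**
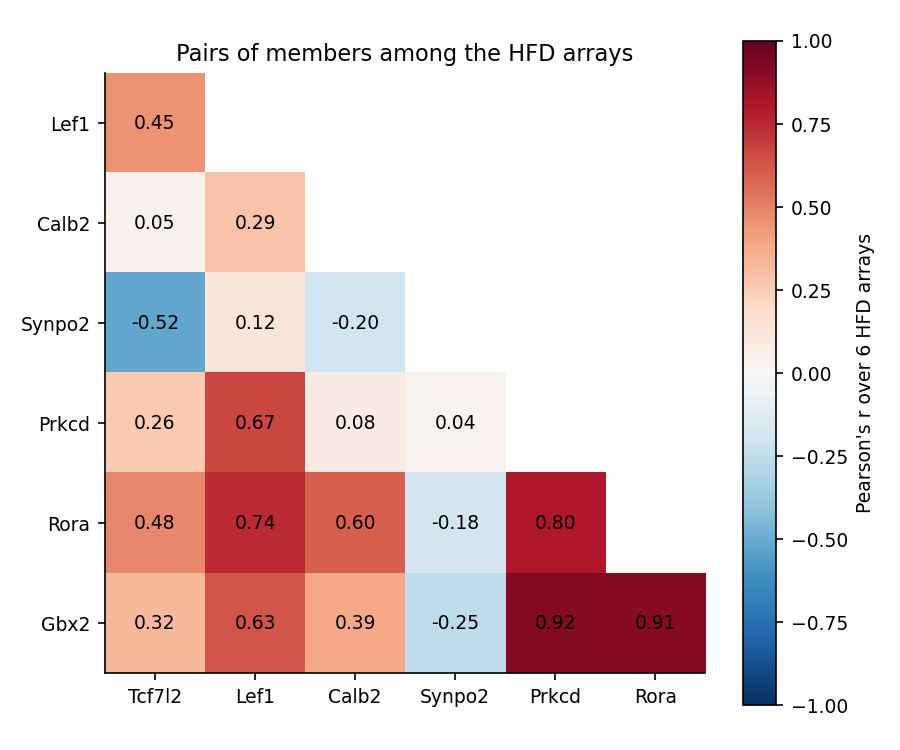
Pearson's r over the 6 HFD arrays for each of the 21 pairs of the 7 genes, by brightest probe; colour runs from -1 (blue) to 1 (red). Prkcd, Rora and Gbx2 form the block of highest values (0.80 to 0.92). The brightest Synpo2 probe lies between -0.52 and 0.12 with the other genes, and at -0.35 and -0.59 with the other Synpo2 probes (not drawn).

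For the 5 CO samples the order by brightest probe is described in place of a coefficient, given their small number. Replicate 5 was last for Tcf7l2, Lef1, Synpo2, Prkcd, Rora and Gbx2 and next to last for Calb2. Replicate 3 was first for Lef1, Synpo2, Prkcd and Rora, and replicate 2 for Tcf7l2 and Gbx2. Rora and the brightest Synpo2 probe ran in the same order over all 5 samples (replicates 3, 4, 1, 2 and 5). They did not do so among HFD samples, where replicate 1 was first for Rora and last for this probe. For the other Synpo2 probes, HFD replicate 1 was first.

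The genes most like each member over the 11 arrays were sought among 15380 genes, by the correlation of values centred on the group mean, given as a description with no test since the arrays share CO replicate 5 and HFD replicate 1 as extremes. Rora was followed most closely by Slitrk6 (r = 0.99), itself on the list of other thalamic genes, and by Kif21a and Sh3d19 (both 0.98). Prkcd was closest to Sinhcaf (0.97), Prkg2 and Grid2ip (both 0.94), and Lef1 to Mctp2 (0.95), Ppm1n and Adamts15 (both 0.94). Tcf7l2 ran with Smtn (0.95), Ascc1 and Casr (both 0.92), Gbx2 with Npc1, Plxdc1 (both 0.94) and Tmem130 (0.93). Calb2 ran with 4930555G01Rik, Sv2a (both 0.95) and Ache (0.94), and Synpo2 with Tyw5 (0.94), Gkap1 and Nemf (both 0.92). Each likeness rests on the brightest probe of the member. Among HFD samples that of Synpo2 had r of -0.35 and -0.59 with its other probes, and that of Tcf7l2 0.15 and 0.36.

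Other genes of the thalamus were examined beside the members. Of 15 such genes, 6 were higher, 1 was lower and 8 did not pass, beside 22.2% higher and 44.2% lower over all genes, and their median was 0.23. Slitrk6, a transmembrane protein of neurite growth, was higher by 1.99 (SE 0.23, 3.97-fold, limma adjusted p = 2.18e-05), and Plcb4, a phospholipase of metabotropic signalling, by 1.76 (SE 0.28, limma adjusted p = 2.16e-04). The transcription factor Lhx9 was higher by 0.87 (SE 0.15, limma adjusted p = 3.76e-04) on its brightest probe and by 0.84 and 0.60 on the other two. The glutamate transporter gene Slc17a6 (0.91), Ntng1 (0.66) and Zic1 (0.44) were also higher, but a second probe of Zic1 was at -0.69. Cacna1g, a T-type calcium channel gene, was lower by 0.22, and its second probe did not pass. Tnnt1, Ramp3 and Adarb1, which mark relay nuclei, were at -0.010, 0.051 and 0.0016 and did not pass. The median was 0.13 without CO replicate 5 and 0.12 without HFD replicate 4. With spike-in scaling 2 genes were higher and 9 lower, beside 942 and 14423 of all 17197 genes.

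Genes of neighbouring territories were examined too, and their counts are to be read beside the 22.2% of all genes higher and 44.2% lower. With normexp, 2691 of all 17197 genes were higher and 3862 lower, and with spike-in scaling 942 and 14423. Of 8 genes of the habenula, which shares Tcf7l2 with the thalamus, 5 were higher (Nwd2 by 1.41, Chrna3 by 0.88, Slc5a7 by 0.39, Chrnb4 by 0.36 and Gng8 by 0.31) and 3 did not pass, Pou4f1 among them at 0.25. Other Nwd2 probes were at 1.11, which passed, and at 0.43, which did not. With normexp 2 habenular genes were higher. The limma adjusted p was 2.07e-05 for Nwd2, 3.05e-05 for Chrna3 and 0.00828 for Chrnb4, and with spike-in scaling 1 habenular gene was higher and 3 lower. In the reticular thalamus and zona incerta, which consist of inhibitory neurons, 1 of 7 genes was higher (Spp1, 0.44) and 3 were lower, among them Six3 (-0.40) and Ecel1 (-0.33). The 3 of 7 lower are close to the 44.2% of all genes lower. Adjusted p-values were 0.0325 for Spp1, 0.0144 for Six3 and 0.0333 for Ecel1 by limma, and without CO replicate 1, CO replicate 2 or HFD replicate 5 there were 0 higher and 1 lower. Of 7 genes of the mammillary region, 3 were higher and 4 lower by limma, whereas 0 were higher and 1 lower by limma with normexp, and 1 was higher and 4 lower with spike-in scaling. Lmx1b was lower by 1.07 (limma adjusted p = 4.09e-06) and Lhx1 by 1.14 (limma adjusted p = 2.97e-05). Sim1, counted among the 3 higher, was well above background on 0 of 5 CO and 6 of 6 HFD arrays. It passed the filter through the HFD arrays alone, so that no p-value is given for it. Its HFD level was 7.27-fold higher or more by a rough bound.

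Markers of other tissue and cells moved as well, and their part in the thalamic values was not tested. Their counts are to be read beside the 22.2% of all genes higher and 44.2% lower. Striatal genes were lower for 9 of 12, and 3 did not pass, led by Drd2 (-1.25), Adora2a (-2.71) and Gpr6 (-1.44), and their summed level relative to the 75th percentile ran from 22.0 to 92.9 on CO and from 16.8 to 34.7 on HFD arrays. The summed level of the 7 thalamic members ran from 7.98 to 15.3 and from 11.9 to 17.0, and that of the 15 other thalamic genes from 62.3 to 87.7 and from 76.3 to 102. Sums are of unlogged levels, in which the brightest genes weigh most. These were Prkcd among the members and Adarb1 and Ramp3 among the other thalamic genes, none of which passed by brightest probe. Of 11 cortical and hippocampal genes, 1 was higher (Prox1, 0.91) and 4 were lower, among them Neurod1 (-0.77) and Lamp5 (-1.13), with summed levels of 2.93 to 8.16 and 1.57 to 4.65. A second Neurod1 probe was at 0.44 and did not pass. Hypothalamic markers were higher for 2 of 12 (Pmch, 0.87, and Hcrt, 0.58) and lower for 0 by limma, but higher for 7 without HFD replicate 1, where their median was 0.38 in place of 0.21. All striatal, cortical and thalamic markers of these lists were well above background on all 11 arrays. Oligodendrocyte genes were lower for 6 of 8 and higher for 1, with Mag at -0.64, Myrf at -0.71 and Mbp at -0.89. Other Mbp probes were at -0.42, which passed, and at -0.17, which did not. Precursor genes were lower for 4 of 6 (Gpr17 -0.78, Sox10 -0.35, Cspg4 -0.24), and endothelial genes were higher for 3 of 6 (Slco1a4 0.91, Cdh5 0.63) and lower for 2 (Cldn5 -0.57). With spike-in scaling, higher genes outnumbered lower ones in none of the 13 lists, beside 942 higher and 14423 lower of all 17197 genes.

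The arrays that were extreme for thalamic members were extreme for other lists too. In HFD replicate 1, the mean deviation from the overall mean of each gene was 0.46 for the members, 0.45 for other thalamic genes and 0.39 for habenular genes, the highest of the 11 arrays in each case. The same array was the lowest for striatal (-1.24), cortical (-1.29) and hypothalamic genes (-0.69). In CO replicate 5, members (-0.65), other thalamic (-0.57) and habenular genes (-0.38) were at their lowest, and cortical genes at their highest (1.11), with striatal genes at 1.03. Without these arrays in turn, the other thalamic genes gave 6 higher each time and 1 or 2 lower.

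**Figure D5:**
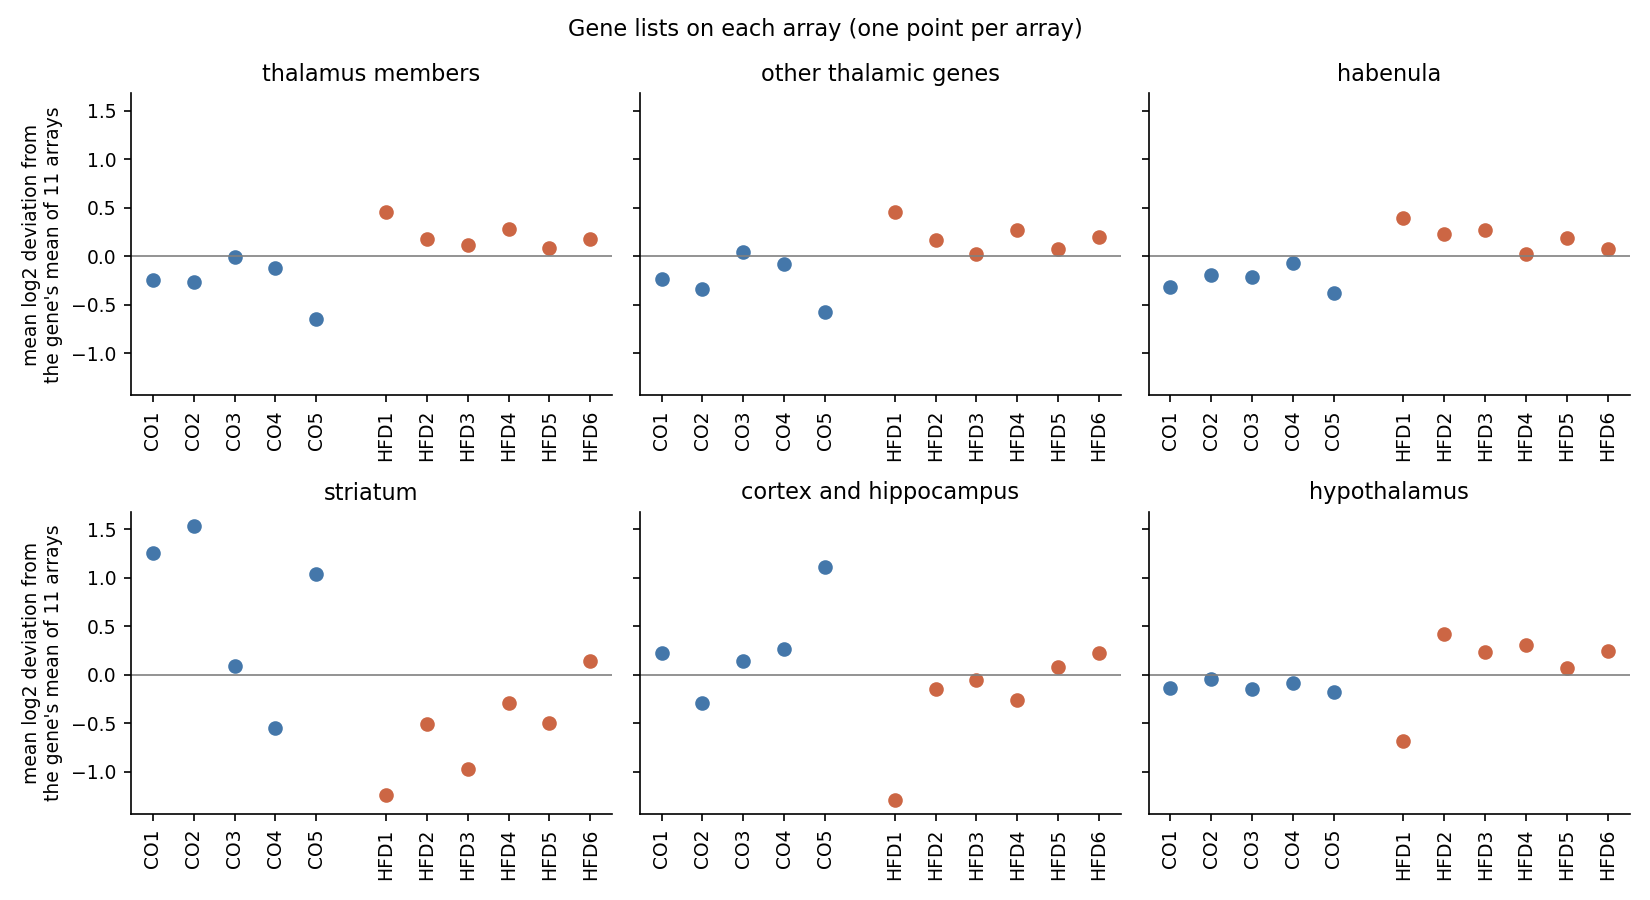
Mean log2 deviation of the genes of a list from each gene's mean over 11 arrays (y axis) on each CO and HFD array (x axis), for 6 gene lists, a point per array. HFD replicate 1 is the highest array for both thalamic lists and the habenula and the lowest for the striatum, the cortex and the hypothalamus, and CO replicate 5 is the lowest for both thalamic lists (-0.65 and -0.57).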

How the data were processed

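Hypothalamic RNA of 5 CO and 6 HFD offspring was measured on 1-colour Agilent arrays. What the authors deposited is scanner output, and its intensity values used here are processed signals, from which Feature Extraction (version 10.8 in the submitters' processing notes) had subtracted the background. How arrays were normalized to each other by the authors is not given. Here, log2 of the processed signal minus the 75th percentile of the array was computed, without control and outlier spots and with spots of a probe averaged. Of 39429 mouse probes, 26369 were named through their accession in a RefSeq gene table (GRCm38.p6), and 13060 were left unnamed. A probe was tested if 5 or more of 11 arrays had it well above background (31800 probes). Groups were compared with limma 3.58.1 in R 4.3.3, two-sided, Benjamini-Hochberg adjusted over all probes. For list counts, limma was run separately on 17197 genes, each by its brightest probe. Within-array differences and correlations were tested by exact permutation with scipy 1.17.1. The limma fit and the exact tests were tested on simulated data. The number of arrays limits the precision.

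Members, lists and tests were chosen with earlier results of these data known. The 13 lists covered the members, other thalamic genes, habenula, reticular thalamus and zona incerta, mammillary region, striatum, cortex and hippocampus, hypothalamus, the TCF/LEF and Wnt pathway, ROR receptors and targets, oligodendrocytes, their precursors and endothelium. Named were all member probes, up to 3 genes per list with the smallest adjusted p among those passing, and the 3 genes most correlated with each member; other genes were named after their values were seen, to complete small counts or to show known markers. The values of 1 list gene are not reported here. For Sim1, at background on every CO array, the fold is a rough bound and rests on no strict detection limit. It sets the HFD mean against the CO mean of each array's dimmest probe still well above background (or of Sim1 itself where brighter).

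Alternatives were quantile, median and spike-in scaling, normexp (offset 50), other filters, slide, replicate number and leading number of the CO titles as blocks, array weights with a variance trend, an exact Mann-Whitney test, the Rank Product test of the study's methods (100 permutations, threshold 0.001), leaving out each array and averaging the probes of a gene. The normexp correction used median spot signals in place of mean ones, a choice made after seeing the data.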

Additional observations from a re-analysis of the deposited data

Results flagged for a closer look

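CO replicate 5 stood apart from the other CO samples for 2 of 24 groups of values examined (12 probes in 2 groups), and chance alone marks about 1 group in 20. For Lef1, the gap between this sample and its nearest neighbour was 0.713 of the whole range of the CO group. For the second probe of Prkcd, A_55_P2008071, the gap was 0.786 of the range. The sample was the lowest in both cases.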

How the results depend on the processing

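Spike-in scaling reversed Lef1 (-0.049) and Gbx2 (-0.25), left 2 member probes and 2 other thalamic genes higher, and gave 9 other thalamic genes lower. Under it 942 of all 17197 genes were higher and 14423 lower. The Rank Product test called 0 member probes higher, 0 lower, 2 other thalamic genes higher and 0 lower. It called few probes in all, 915 of 31711 higher and 719 lower, and 479 of 17161 genes higher and 392 lower. At a threshold of 0.05 in place of 0.001 it would have called 3 member probes higher, whereas limma called 6 and the exact Mann-Whitney test 6. Member probes lower numbered 2 with quantile normalization and 1 with normexp, where Synpo2 A_52_P223127 and A_55_P2159309 did not pass. With normexp Prkcd A_55_P2008071 did not pass either. Of all 31800 probes, 11936 were lower with quantile normalization and 5355 with normexp. Other thalamic genes lower, Cacna1g alone in the reported fit, numbered 0 with quantile normalization, median scaling, the Mann-Whitney test and averaged probes, and 2 with array weights. Leaving out each array, member probes higher stayed at 6, lower ones ran from 4 to 5, other thalamic genes from 6 to 7 higher and 0 to 2 lower, member pairs passing from 14 to 17, probe pairs from 4 to 6, and pairs correlated among HFD arrays were 0. The lower count of other thalamic genes was 0 without CO replicate 2, 3 or 4 or HFD replicate 3, 4 or 5, and 2 without CO replicate 1 or HFD replicate 1. Prkcd A_51_P460734 passed with array weights (-0.42). Of the marker lists, hypothalamic genes higher numbered 4 with quantile normalization, median scaling or the slide as a random block and 5 with array weights, and striatal genes lower 5 with the Mann-Whitney test. Cortical genes lower numbered 2 with normexp, and precursor genes lower 2 with median scaling. The causes of these changes were not tested. Samples with the same replicate number in both groups correlated at -0.09 to 0.22 in their deviations from the group means, 2 of 5 over 0.1, and 2 of 5 CO samples correlated best with their own number, so the numbers were not taken as pairs. With the replicate number as a block, Synpo2 A_52_P223127 was at -0.36 and did not pass (limma adjusted p = 0.0594), other thalamic genes lower numbered 0, and the other member calls did not change. Dim probes are limited by background, as for Synpo2 A_55_P2159309.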
